A study of Drosophila melanogaster with 3 samples.

Results

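The summits described here are positions of Ultraspiracle (USP) binding that lie on a tract of alternating C and A. The summit of a ChIP-seq peak is the base at which the peak caller placed its top. A summit was taken when a run of at least 8 bases strictly alternating C and A, on either strand, lay within 100 bp of it and no run of at least 7 bases alternating G and A did. The choice used sequence alone and no binding value. Of the 11195 summits in the optimal list of the study, 1008 (9.0%) met the rule. A further 992 had a G and A run only, 261 had both kinds of run, and 8934 had neither.

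The 3 samples were biological replicates of a single group, and no second genotype, treatment or stage was analysed here. Each consisted of whole larvae, of both sexes and unknown age, taken while wandering in the third instar. They came from the Drosophila melanogaster strain usp-GFP, a line that stably expresses usp with a C-terminal eGFP tag. Sonicated chromatin of 200 to 800 bp was precipitated with an antibody against GFP. Whole larvae mix all tissues, so a summit bound in few cells and a summit bound weakly in many cannot be told apart. Whether the tagged usp was added to the native gene or replaced it is not given in the labels, and no larvae without the tag were analysed here. Read depth cannot be read from the peak lists. Per the file headers, the optimal list came from replicates 2 and 3, but its signal went against this: at summits found in all 3 replicates it had a median of 0.984 times the summed signal of replicates 1, 2 and 3, and 1.44 times that of replicates 2 and 3. No replicate is therefore treated as independent of the optimal list.

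USP, the RXR relative of flies, binds DNA as the partner of EcR, the receptor for the moulting hormone ecdysone. The pair is best known for binding an imperfect inverted repeat of the hexamer AGGTCA. Tracts of alternating C and A, which read as alternating T and G on the other strand, are the most common dinucleotide microsatellites of the fly genome. Runs of alternating C and A, like runs of alternating G and A, are frequent in fly enhancers and promoters that are active in many tissues. Several fly zinc finger and BTB proteins are known to bind such repeats. GAGA factor, Clamp and Pipsqueak bind alternating G and A, and Combgap has been reported at alternating G and T.

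The windows below reach 100 bp to either side of the summit and are shown because they hold strong sites in introns of ecdysone response and growth genes, and the longest tract. They were read on the plus strand from RefSeq release 6, the genome assembly with dm6 coordinates. Capitals mark runs of at least 8 alternating C and A, or T and G where the run lies on the other strand.
Hr4 intron, rank 14, chrX:1951523-1951723: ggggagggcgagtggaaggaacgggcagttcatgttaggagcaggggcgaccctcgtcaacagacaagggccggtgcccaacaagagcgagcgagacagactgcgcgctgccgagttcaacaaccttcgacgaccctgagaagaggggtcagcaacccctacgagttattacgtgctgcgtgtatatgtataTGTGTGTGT
Eip75B intron, rank 29, chr3L:18029673-18029873: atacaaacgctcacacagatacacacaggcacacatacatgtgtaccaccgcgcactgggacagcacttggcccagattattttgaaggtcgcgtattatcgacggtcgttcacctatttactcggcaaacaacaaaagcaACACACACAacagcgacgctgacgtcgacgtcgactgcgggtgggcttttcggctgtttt
Hr4 intron, rank 41, chrX:1947302-1947502: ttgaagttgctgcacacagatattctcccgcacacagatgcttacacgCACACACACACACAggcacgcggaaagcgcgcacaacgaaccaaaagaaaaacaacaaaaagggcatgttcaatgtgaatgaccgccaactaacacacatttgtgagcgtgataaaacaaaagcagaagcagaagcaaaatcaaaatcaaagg
InR intron, rank 64, chr3R:21616245-21616445: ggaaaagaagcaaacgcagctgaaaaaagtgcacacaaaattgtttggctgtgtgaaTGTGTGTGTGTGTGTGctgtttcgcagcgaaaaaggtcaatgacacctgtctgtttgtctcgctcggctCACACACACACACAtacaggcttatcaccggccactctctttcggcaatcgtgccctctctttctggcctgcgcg
vri intron, rank 66, chr2L:5306584-5306784: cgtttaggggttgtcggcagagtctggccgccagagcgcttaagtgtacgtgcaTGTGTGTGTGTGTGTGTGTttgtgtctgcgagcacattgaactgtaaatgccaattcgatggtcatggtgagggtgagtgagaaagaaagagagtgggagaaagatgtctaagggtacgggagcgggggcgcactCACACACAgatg
heca intron, rank 6919, chr3R:30346936-30347136: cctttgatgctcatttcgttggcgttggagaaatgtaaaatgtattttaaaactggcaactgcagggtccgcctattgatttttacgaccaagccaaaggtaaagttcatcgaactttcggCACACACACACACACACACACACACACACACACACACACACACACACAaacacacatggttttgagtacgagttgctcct

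The tract was a small part of most of these windows, and the letters around it differed from window to window. In the stronger Hr4 window a run of 18 bp began near the right edge, and 9 of its bases lay inside the window. That window also held 3 receptor hexamers, AGTTCA at 1951549 and 1951636 and GGGTCA at 1951668. The InR window had runs of 16 and 14 bp on either side of a hexamer AGGTCA at 21616335, which lay 7 bp from the summit. In the vri window the runs were 19 and 8 bp, and a hexamer AGTTCA on the minus strand lay 6 bp from the summit. The Eip75B window and the weaker Hr4 window held none of the 4 hexamers searched (the word AGGTCA, its variant GGGTCA, the variant AGTTCA and the variant GGTTCA). In the heca window the run was 48 bp, the longest at any of the 1008 summits, and a hexamer AGTTCA lay 6 bp from the summit.

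Summits fell on CA tracts about 2 times as often as the DNA beside them. Each replicate's own 11195 strongest summits were taken, and the tract share was 9.07% in replicate 1, 9.47% in replicate 2 and 8.85% in replicate 3. Windows of the same size 1000 bp to either side of the same summits had shares of 4.72%, 5.14% and 4.72%. The mean was 9.13% ± 0.313 at summits, against 4.86% ± 0.242 in the flanks (SD, n = 3), a difference of 4.27 ± 0.119 percentage points seen in all 3 replicates. The difference was far larger than the spread between replicates. The exact two-sided sign-flip permutation test over the replicates gave p = 0.25, the smallest value that 3 replicates allow in this and every later test. Over the whole genome 4.36% of 664860 windows of 201 bp met the same rule.

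Other dinucleotides set a scale for this ratio. Without the exclusion of G and A runs, a run of at least 8 alternating C and A was 2.06 ± 0.0457 times as frequent at summits as in the flanks. The ratio was 2.23 ± 0.100 for alternating G and A, 1.85 ± 0.156 for alternating C and G, and 0.941 ± 0.0307 for alternating T and A (SD, n = 3). Relative to these flanks, alternating C and A thus stood beside alternating G and A. Alternating T and A was no more frequent at summits than beside them. Runs of C and A were the most frequent of the 4 kinds, at 11.3% of summits, against 6.02% for G and A. Genome windows had 4.67% for C and A and 1.49% for G and A, and the flanks 5.52% and 2.71%. Alternating C and G was in 0.593% of summit windows and 0.150% of genome windows. Relative to the genome, the excess of C and A was thus smaller than that of G and A or of C and G.

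The tracts were spread over the region of the summit and did not mark its exact position. In the plot of tract cover by distance, C and A runs covered 0.663% ± 0.0410 of positions within 24 bp of the summit, 0.832% ± 0.0344 at 75 to 99 bp and 0.405% ± 0.00995 at 300 to 324 bp (SD, n = 3). The genome as a whole had 0.303%. Cover was thus highest somewhat to the side of the summit and had come near the level of distant DNA by about 300 bp. The median distance from a summit to the centre of its nearest run was 49.25 bp, and at 68 of the 1008 the summit lay inside a run. Within the chosen windows, runs covered 5.79% ± 0.303 of the innermost 25 bp and 6.79% ± 0.149 of the outermost, a difference of -1.0 ± 0.320 in the same direction in 3 of 3 replicates (exact sign-flip p = 0.25). In the optimal list the difference was -0.41. Alternating G and A had the same shape at a lower level, with 0.286% within 24 bp and 0.433% at 100 to 124 bp, while alternating T and A had 0.172% and 0.206%.

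**Figure D1:**
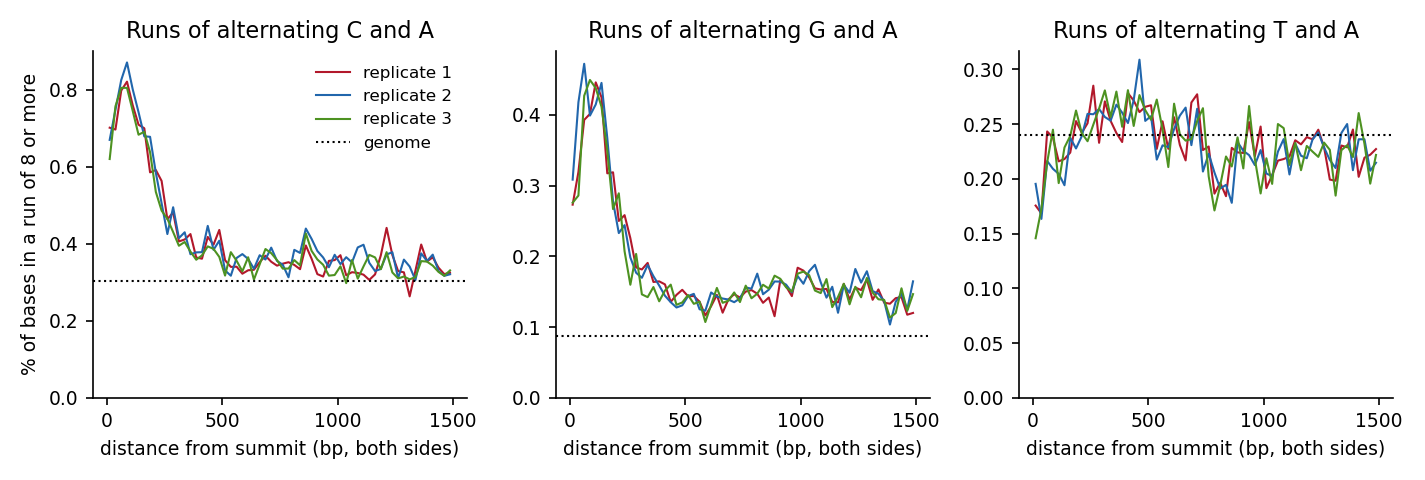
Share of positions (%) covered by runs of at least 8 alternating bases against distance from the summit (bp), for C and A, G and A, and T and A. The strongest summits of each of the 3 replicates have a line of their own, with the genome level beside them. As a mean over replicates, cover by C and A peaks at 0.832% at 75 to 99 bp and is 0.405% at 300 to 324 bp, against 0.303% over the genome.

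Most tracts were short. The median of the longest run was 10 bp; 323 summits had a longest run of 8 bp, 381 of 9 to 11 bp, 254 of 12 to 19 bp and 50 of 20 bp or more. A lone run was present at 841 summits, 2 runs at 141 and 3 or more at 26. The 1008 summits held 1203 different runs, 566 with the CA letters on the plus strand and 637 with them on the minus strand. They lay in 956 different peak intervals, and 16 of them were within 200 bp of another, so nearly all were separate sites.

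The excess at summits was larger for long runs than for short ones, though it did not rise at every step. Runs of 6 bp were 1.04 ± 0.0108 times as frequent at summits as in the flanks, and runs of 7 bp 1.26 ± 0.0553 times. The ratio was 1.64 ± 0.0897 for runs of 8 bp and 1.57 ± 0.192 for 9 bp. It was 2.25 ± 0.0255 for 10 to 11 bp, 2.15 ± 0.134 for 12 to 15 bp and 2.33 ± 0.0819 for 16 bp or more (SD, n = 3). On the short side, 588 summits with a longest run of 7 bp lay just outside the threshold. The 329 summits just inside it, with a run of 8 bp in the window, had a median signal of 728, and those just outside a median of 826.

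**Figure D2:**
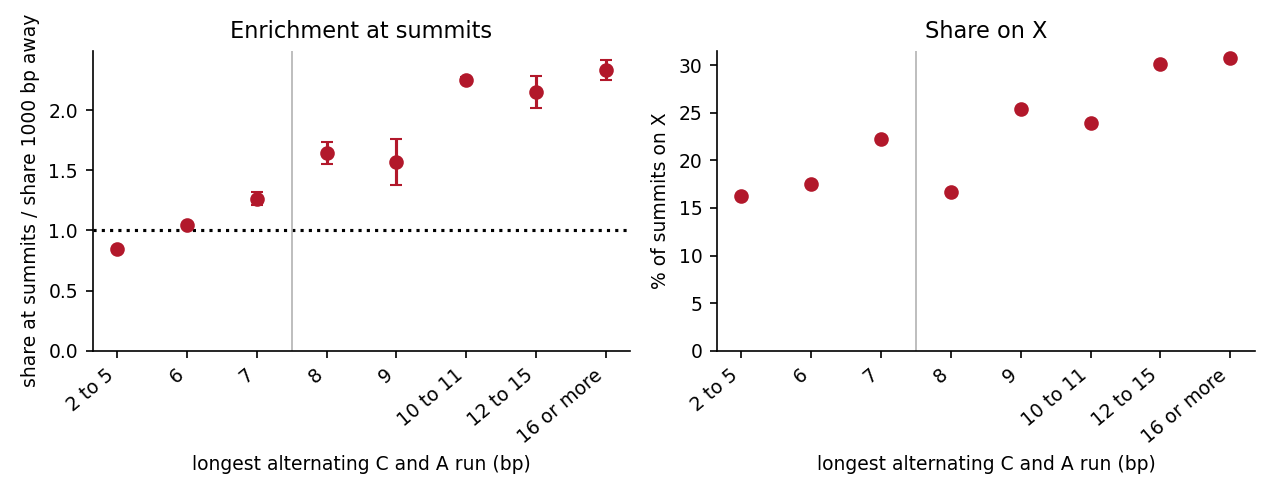
Left, frequency at summits over that in flanks 1000 bp away for summits grouped by their longest run of alternating C and A (bp), as mean and SD over 3 replicates. Right, share of summits on the X chromosome (%) in the same groups of the optimal list. The ratio is 1.04 at 6 bp and 2.33 at 16 bp or more, and the X share is 16.7% at 8 bp and 30.8% at 16 bp or more.

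CA-tract summits had a somewhat higher median rank than the rest. The deposited signal scores each peak, and it is given here as a rank percentile within a list, with 100 for the strongest summit. In replicates 1, 2 and 3 the median percentile was 52.6, 51.2 and 52.8 for CA-tract summits, against 49.8, 49.9 and 49.8 for all others. The difference was 2.41 ± 0.914 and had the same sign in 3 of 3 replicates (exact sign-flip p = 0.25). It was no larger than its spread among the strongest 5597 of each replicate (0.52 ± 1.16) and little larger with tracts sought within 200 bp (1.18 ± 1.16). In the optimal list the median percentile was 53.4 against 49.7, and the median signal 798 against 742. Among those others, summits with G and A runs alone had a median percentile of 57.9 and a median signal of 869, above the CA-tract summits; this difference was not tested. Among summits within 500 bp of a transcription start site (TSS) the difference was -0.10 ± 0.822 and changed sign between replicates (exact sign-flip p = 1). Away from TSSs it was 5.31 ± 1.18, positive in all 3 replicates (exact sign-flip p = 0.25). The higher rank was thus seen at distal sites, where its mean was over 4 times its SD, and was not detectable at promoters; the difference between both classes was not tested.

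The same gradient appeared down the full lists of 30000 summits per replicate. Of the 3000 strongest, 9.57% ± 0.0333 lay on a CA tract, and of the 3000 weakest 6.06% ± 0.278 (SD, n = 3). The flanks of the same summits had 5.17% ± 0.100 and 5.07% ± 0.279, so the weakest 3000 were about 1 percentage point above their surroundings. Summits with G and A runs alone made up 11.3% of the strongest 3000 and 4.0% of the weakest. The share of summits near a TSS also changed along the same lists, though not in parallel. It rose from 38.8% of the strongest 3000 to 45.6% at ranks 6001 to 9000, then fell to 18.4% of the weakest. Its part in the gradient was not tested.

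**Figure D3:**
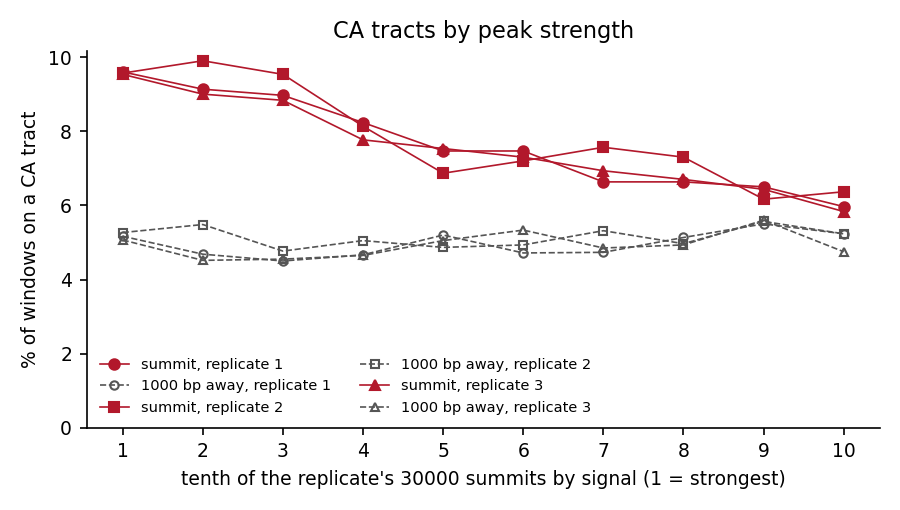
Share of windows (%) on a CA tract at summits and in their flanks 1000 bp away. Each replicate's 30000 summits are taken in steps of 3000 ordered by signal, strongest first. Points are the 3 replicates, and a line joins the points of each. As a mean over replicates, the CA share is 9.57% of the strongest 3000 and 6.06% of the weakest, while the flanks stay near 5%.

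The replicates found these summits about as often as other summits. Of the 1008 summits, 733 (72.7%) had a summit within 100 bp among the strongest of each of the 3 replicates, against 71.1% of other summits and 71.2% of all summits. Replicates 1, 2 and 3 held 87.4%, 86.4% and 90.4% of CA-tract summits among their strongest, against 87.4%, 84.4% and 90.3% of the others. By each replicate's own list, the share found in both other replicates was 73.4% for CA-tract summits and 70.3% for others in replicate 1, 69.1% and 70.6% in replicate 2, and 73.3% and 70.7% in replicate 3. The difference of 1.36 ± 2.53 percentage points was smaller than its spread and changed sign between replicates (exact sign-flip p = 0.5). In the full lists, 919 of the 1008 (91.2%) were found in all 3 replicates. The nearby summit met the sequence rule again in all 3 replicates at 554 of the 1008 (55.0%). This was 75.6% of the 733 found among the strongest of all 3. The rest of the 1008 had no such summit in at least 1 replicate.

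The strongest CA-tract summits included several in introns of ecdysone response genes. The first of all was in an intron of Hr4, a nuclear receptor gene of the ecdysone response, on X at 1951623, with rank 14 in the optimal list and ranks 16, 9 and 17 in replicates 1, 2 and 3. A further Hr4 summit at 1947402, in the same peak interval, had rank 41 and replicate ranks of 46, 32 and 54. The gene of the nuclear receptor E75, Eip75B, had an intronic summit on 3L at 18029773 with rank 29 (replicate ranks 30, 41 and 26) and another at 18005717 with rank 92 (138, 76 and 84). These 4 sites were among the first 140 of every replicate. EcR itself had 2 intronic summits on 2R, at 6120699 with rank 34 (35, 37 and 29) and at 6145894 with rank 38 (33, 54 and 39).

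The other sites among the 15 strongest were in genes of various kinds or between genes. An intron of InR, the insulin receptor gene, held the summit on 3R at 21616345 with rank 64 (replicate ranks 73, 59 and 64). The bZIP repressor gene vri, also of the ecdysone list, had an intronic summit on 2L at 5306684 with rank 66 (64, 86 and 63). Pdk, which encodes pyruvate dehydrogenase kinase, had rank 39 (51, 43 and 38), and the summit in ctrip, a ubiquitin ligase gene, had rank 44 (42, 42 and 50). The summit in zip, the gene for the heavy chain of nonmuscle myosin, had rank 91 (100, 91 and 94). The summit at rank 22 (26, 21 and 21) lay in the 3′ UTR of chm, a histone acetyltransferase gene. Those at rank 15 and rank 111 were intergenic, with CG31668 and CG5953 as their nearest protein-coding genes. The summit at rank 96 (106, 101 and 98) was at a promoter, 230 bp downstream of the TSS of CG8031. In the plot of the 15 strongest, the replicates' ranks of each site stayed close together. Their tracts were mostly short: 5 of the 15 windows had a run of 13 bp or more, as counted over its full extent.

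**Figure D4:**
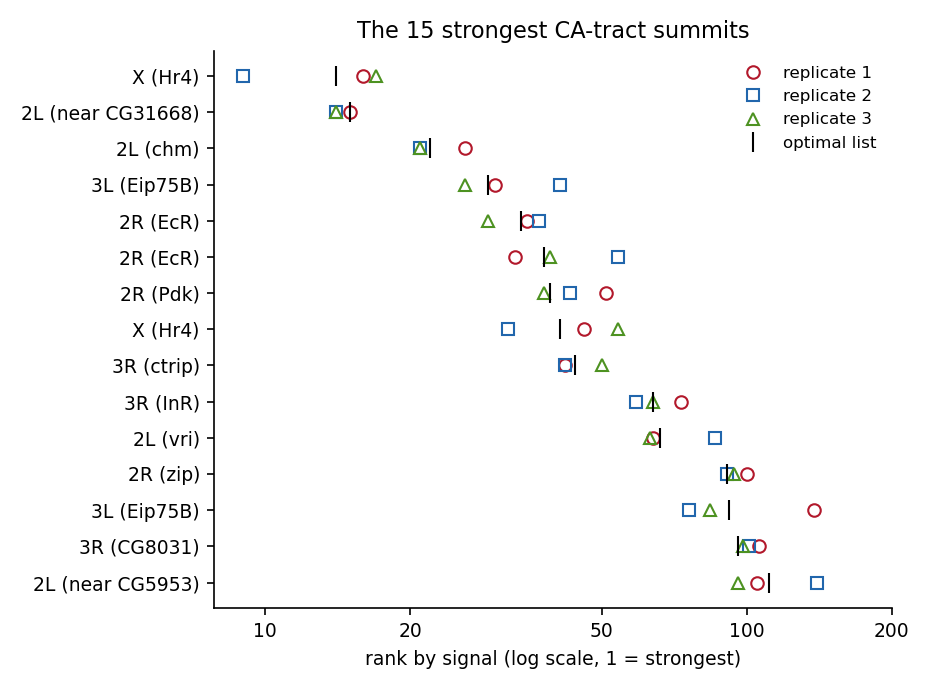
Rank by signal (log scale, 1 strongest) of the 15 strongest CA-tract summits in the optimal list and in each of the 3 replicates, labelled by the gene they lie in or nearest to. All 15 lie among the first 140 of every replicate, with Hr4 at ranks 16, 9 and 17 at the top.

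The 5 summits with the longest runs had ranks from 1131 to 7150, none among the first 1000. The first 1000 made up 8.93% of all summits, so 5 sites are too few to read this as low rank. The run of 48 bp in an intron of heca, on 3R, belonged to a summit of rank 6919 with replicate ranks of 6910, 5542 and 9149. A run of 44 bp in an intron of the corepressor gene Smr, on X at 12723654 to 12723697, had rank 7150 and ranks of 6745, 19626 and 6253. A run of 36 bp in an intron of the homeobox gene NK7.1 was shared by 2 summits of 1 interval, with ranks 1131 and 2938. CG14478, with a run of 36 bp at its 5′ UTR, had rank 2791. Long runs in general did not go with low rank: the median percentile was 54.2 for runs of 16 bp or more and 58.8 for 12 to 15 bp, against 48.7 for 8 bp. Long tracts can be hard to map with short reads, and no source used here names the mapping filters. Their part in these ranks was not tested.

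Of 17 regulators of the ecdysone response, 12 had at least 1 CA-tract summit, and 14, 13 and 12 had 1 in replicates 1, 2 and 3. Among all 13945 protein-coding genes 847 (6.07%) had 1, and 4990 (35.8%) had a summit of any kind in the gene body or up to 1000 bp upstream; the regulators are long genes with many summits. Per summit, 51 of their 302 (16.9%) lay on a CA tract, against 9.0% of all summits. The share was 17.1% ± 0.417 over the replicates' own lists (SD, n = 3). The flanks of the same summits had 6.13%, and windows along the same gene bodies 7.71%. The summits of these genes thus stood above their own surroundings in tract share, as the summits of the whole list did. The list was chosen with earlier results of these data known, and its counts are a description.

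Among these regulators, Eip75B had 10 of its 82 summits on a CA tract (10, 10 and 9 in the replicates), the most of any protein-coding gene. As a share this was 12.2% of its summits, not far from the 9.0% of all summits. Of windows along the gene 3.89% held such a tract. Hr4 had 8 of 29 (7, 7 and 5) and Eip74EF, an ETS factor gene of the early response, 7 of 31 (8, 7 and 9). The zinc finger gene br had 6 of 24 (7, 11 and 7), and its gene body was rich in tracts, with 17.4% of windows. These br summits also lie in Mur2B, which overlaps it. EcR had 5 of 32 and vri 4 of 20. Hr3, a receptor gene of the ROR family, had 2 with a best rank of 126 at the promoter of a noncoding RNA inside it. Hr39, an orphan receptor gene, had 2, and Kr-h1, a zinc finger gene of juvenile hormone signalling, 3, with best ranks of 276 and 444. The best CA-tract summits of crol, Eip78C and Blimp-1 ranked 4872, 9462 and 11025, and that of Blimp-1 was not found in replicate 2. The regulators usp, ftz-f1, Hr38, E23 and Eip93F had summits in the optimal list but none on a CA tract. In the replicates' own lists ftz-f1 had 1 on a tract in replicates 1 and 2, and E23 had 2 in replicate 1.

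Outside the ecdysone list, the bHLH gene crp had 8 of 17 summits on a CA tract (7, 8 and 8 in the replicates), and 10% of 120 windows along it held a tract. The zinc finger gene shn, which acts in Dpp signalling, had 7 of 35 (6, 8 and 7). The zinc finger gene mamo on X had 6 of 15 (4, 4 and 5). The overlapping genes CG46467 and Glut4EF shared 7 of 36. These genes were among the 10 with most CA-tract summits, together with Eip75B, Hr4, Eip74EF, Mur2B and br.

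Coregulators of nuclear receptors had CA-tract summits at 6 of 17 genes, against 6.07% of all protein-coding genes. Of their 98 summits 15 (15.3%) lay on a tract, against 9.0% of all summits, with 17.7% ± 0.754 over replicates, 6.12% in the flanks and 6.97% of windows along the genes. The genes were osa, a subunit of the SWI/SNF remodeller, with 4 and a best rank of 482, the corepressor genes Smr with 4 and Sin3A with 3, and the remodeller gene Mi-2 with 2. The coactivator gene tai had 1 of 24, and the receptor gene ERR had 1 at rank 10714, a summit it shares with the neighbouring Atg18a. Of 18 genes of insulin signalling and growth 6 had a CA-tract summit and 12 of 113 summits (10.6%; 10.04% ± 1.67 over replicates) were on a tract, near the 9.0% of all summits. Their flanks had 3.54% and windows along the genes 5.61%. The genes were bun and sgg with 4 each, and Akt, InR, Pdk1 and foxo with 1 each.

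The list of Trl, Clamp, psq, cg, lola, pho and Spps had the highest share among the lists. Trl, Clamp, psq and cg encode the repeat-binding proteins named above, and lola, pho and Spps were listed beside them. In psq 5 of 18 summits, in lola 3 of 13 and in cg 3 of 5 lay on a CA tract, which gave 11 of 40 (27.5%; 30.9% ± 3.56 over replicates). Their flanks had 17.5% and windows along the genes 8.48%. Trl had 4 summits with none on a tract. The other lists had lower shares. Cell death and autophagy genes had 4 of 50 summits on a tract (8.0%), ribosomal protein genes 4 of 73 (5.48%) and Polycomb target genes 2 of 45 (4.44%, against 14.4% in their flanks). The Polycomb share was 9.76%, 13.6% and 7.32% in the replicates, a spread too wide to place it above or below the 9.0% of all summits.

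At promoters, CA-tract summits lay more often downstream of the TSS than other summits did. Of the 434 CA-tract summits within 500 bp of a TSS, 39.9% were upstream of it, against 52.9% of 4386 other summits. Over the replicates' own lists the shares were 39.5% ± 1.68 and 53.3% ± 1.51 (SD, n = 3). The difference was -13.8 ± 0.747 percentage points and negative in 3 of 3 replicates (exact sign-flip p = 0.25). The median position was 54 bp downstream for CA-tract summits and 11.5 bp upstream for the others. Promoter windows of the genome leaned the same way but by less, with 39.0% upstream for those on CA tracts and 45.6% for the others. Where all TSSs within 500 bp were on 1 strand, the difference over replicates was -12.8 ± 0.586.

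The share of summits on a tract was highest 200 to 300 bp downstream of the TSS. In that bin 59 of 289 summits (20.4%) lay on a CA tract, and over the replicates 20.2% ± 0.611 (SD, n = 3), against 5.80% of genome windows at the same distance. From the TSS to 100 bp downstream the summits had 7.43% ± 0.466 and the genome windows 4.33%. The excess over the genome was thus larger some way into the gene than at the start site. The strongest sites of that bin, chosen after their values were seen, were at CG8031 at rank 96, Faf2 at rank 681 and ari-2, a ubiquitin ligase gene, at rank 713. The site at sqh, which encodes the regulatory light chain of nonmuscle myosin, followed at rank 1026 (734, 1318 and 1003 in the replicates), 251 bp downstream. That at spi, the gene for the ligand of the EGF receptor, had rank 1163 (2016, 485 and 1801), 213 bp downstream with a run of 19 bp.

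The tracts at promoters had a strand preference. On the strand of the gene the longest run read as T and G at 57.8% of the 434 promoter summits (exact binomial 95% interval 53.0% to 62.5%, counting error only). Over the replicates' own lists it was 61.8% ± 1.04 (SD, n = 3), above an even split in 3 of 3 replicates (exact sign-flip p = 0.25). Downstream of the TSS 62.5% read as T and G and upstream 50.9%, a difference that was not tested. Promoter windows of the genome that meet the rule had 59.0%, above the optimal list's share and below that of each replicate's own list (63.0%, 61.5% and 61.0%). These genome windows were split by side much like the optimal list, with 63.0% downstream and 52.7% upstream. The replicates' own lists had 66.6% ± 0.694 downstream and 54.5% ± 1.28 upstream (SD, n = 3). In introns the run read as C and A at 47.1% of 433 sites (exact binomial 95% interval 42.3% to 51.9%).

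**Figure D5:**
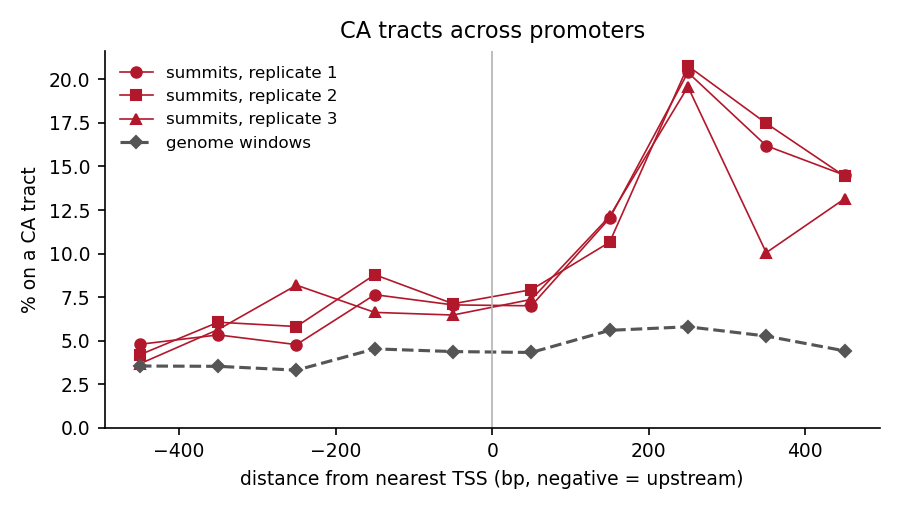
Share of summits (%) on a CA tract by position relative to the nearest TSS, in bins of 100 bp from 500 bp upstream to 500 bp downstream. Each of the 3 replicates has a line of its own, with genome windows at the same positions. As a mean over replicates, the summits reach 20.2% at 200 to 300 bp downstream, where genome windows have 5.80%.

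By genome annotation the CA-tract summits were spread much like the others. In the optimal list 434 (43.1%) were at promoters, 445 (44.1%) in introns and 84 (8.33%) intergenic, against 43.1%, 41.8% and 9.86% of other summits. Over the replicates' own lists the intron share was 3.54 ± 0.840 percentage points higher, and the intergenic share lower at -1.69 ± 0.178, each in 3 of 3 replicates. The promoter share differed by -1.09 ± 0.884, and this sign turned in the optimal list and in the full lists. It was -5.21 ± 0.795 for runs of at least 12 bp, -3.70 ± 0.429 among the strongest 5597 and -3.56 ± 0.417 with tracts within 50 bp. Coding sequence held 5 CA-tract summits (0.496%, against 1.87% of others), in Vamp7, CG2865, dob, CG3349 and CG33229, named here after their values were seen. Coding sequence has few such tracts at all, with 0.741% of its windows, so its summits were on tracts 3.44 times as often as its windows. This ratio rests on those 5 summits, and the one in CG33229 was not found in replicates 1 and 2. The corresponding ratio was 1.98 at promoters, 1.79 in introns and 1.80 between genes. The peak intervals that held CA-tract summits had a median width of 719.5 bp, against 634 bp for other summits. Of CA-tract summits 58.6% were alone in their interval, against 64.5% of the others. This was not particular to CA tracts. Summits with G and A runs only had 738.5 bp and 58.3%, and those with both kinds of run 821 bp and 55.2%. Summits with neither had 620.5 bp and 65.5%.

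The X chromosome held more of the CA-tract summits than of other summits. It had 239 of the 1008 (23.7%), against 17.3% of the others, and over the replicates 23.1% ± 0.305 against 17.0% ± 0.323 (SD, n = 3). The difference was 6.03 ± 0.577 percentage points in 3 of 3 replicates (exact sign-flip p = 0.25). The X is itself richer in such tracts, with 5.91% of windows against 4.03% on the autosomes. Relative to these levels, summits were on tracts 2.02 times as often as windows on X and 2.07 times as often on the autosomes. The arms 2L, 2R, 3L and 3R had 153, 194, 202 and 220 CA-tract summits, 8.11% to 8.57% of their summits, and chromosome 4 had none among its 10 summits.

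Windows on CA tracts carried fewer of the receptor hexamers than other bound windows. With the tracts masked and both strands searched, at least 1 of the 4 hexamers spelled out above was found in 277 of the 1008 windows (27.5%), against 33.2% of other summits. The difference over replicates was -6.76 ± 0.950 percentage points in 3 of 3 (exact sign-flip p = 0.25). The genome had 23.9%, and genome windows on CA tracts 18.7%, so the bound tract windows exceeded genome windows with the same kind of tract. The full ecdysone response element, searched by its published consensus as an inverted repeat, was found in 7 CA-tract windows (0.694%, exact binomial 95% interval 0.280% to 1.43%), against 0.422% of the others and 0.0286% of the genome. They lay, among others, in gpp at rank 283, CG6678 at rank 579, Alh at rank 795, crp at rank 1587 and eIF5B at rank 8568, and between genes at rank 10667. Such windows were thus found from strong sites to near the bottom of the list.

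Words of other factors differed in either direction. GATAAG, the word bound by GATA factors, was in 11.9% of CA-tract windows, against 18.8% of others, a difference of -7.00 ± 0.741 over replicates, while genome windows on CA tracts had 6.13% and all genome windows 8.32%. TGANTCA, bound by AP-1, was in 3.97% against 6.68%, and the DREF element TATCGATA in 0.595% against 1.72%. TATAAA was in 14.3% against 19.5%, a difference of -5.87 ± 0.330. CAGGTA, the Zelda word, went the other way with 5.26% against 4.40% (1.15 ± 0.518), as did runs of at least 8 A with 13.9% against 11.7% (2.12 ± 0.601). Each of these signs was the same in 3 of 3 replicates (exact sign-flip p = 0.25). Of the other words searched, 4 also kept their sign in 3 of 3 replicates. These were CACGTG (-0.778 ± 0.166), GGTCACACT (-0.583 ± 0.162), ACCACA (0.951 ± 0.432) and GCCAT (-1.30 ± 1.00). CAGCTG, TCAAGGTCA and alternating T and A kept theirs in 2 of 3. In the optimal list the shares were as follows. CACGTG was in 1.98% against 3.03% and CAGCTG in 10.2% against 11.3%, the core promoter word GGTCACACT in 0.397% against 1.04%, and the Runt word ACCACA in 8.53% against 7.69%. The FTZ-F1 word TCAAGGTCA was in 0.397% against 0.383%, the Pho core GCCAT in 31.4% against 32.0%, and alternating T and A in 3.67% against 3.54%. In all, 15 words or elements were searched. Over all genome windows of the same length, TGANTCA was in 3.93%, TATCGATA in 0.564%, TATAAA in 21.7%, CAGGTA in 4.6% and a run of A in 10.5%. Genome windows on CA tracts had 2.92%, 0.321%, 17.7%, 3.35% and 11.98% in the same order. TGANTCA, TATCGATA and TATAAA were thus also less frequent on unselected tracts, and runs of A more frequent, while CAGGTA was less frequent there. How much of each difference at summits comes with the tract sequence was not tested. The genome had CACGTG in 2.32% of windows, CAGCTG in 8.37%, GGTCACACT in 0.201%, ACCACA in 9.09%, TCAAGGTCA in 0.138%, GCCAT in 35.4% and alternating T and A in 4.01%. GC content had a median of 46.3% in CA-tract windows, against 44.8% in others, and its part in these shares was not tested.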

How the data were processed

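ChIP-seq peaks of USP-eGFP were analysed in 3 biological replicates of whole larvae, a single group. The authors deposited, per the file headers, narrowPeak lists on dm6 for each replicate, a pooled list and an optimal list thresholded by the irreproducible discovery rate. Per the file headers, replicates 2 and 3 were the parents of the last 2 lists; their signal was closer to the sum of all 3 replicates. The deposited signal, a score per peak, only ranked peaks within a list. The deposited −log10 q-value was not used. The summit is a deposited offset from the start of the interval. No source used here names the aligner, the caller or the threshold, and read depth is unknown. Each replicate and pooled list held 30000 rows, and the optimal list was the 11195 strongest pooled summits, so each replicate was reduced to its 11195 strongest. Replicates shared 1.34% to 1.86% of summits at the same base, so each was a library of its own.

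Sequence was that of RefSeq release 6 (dm6 coordinates), with Ensembl release 115 gene models; 30540 of 30593 start codons (99.8%) read ATG. Coordinates are 1-based. Classes were assigned in order: promoter, up to 500 bp from a TSS, then 5′ UTR, coding, 3′ UTR, noncoding exon, intron, intergenic. A summit counted as found again within 100 bp. Values per replicate were compared by an exact two-sided sign-flip permutation test (scipy 1.17.1, numpy 2.4.6, pandas 2.3.3, Python 3.11.15; plots with matplotlib 3.10.9). The run search was tested on simulated data. The summits, lists and motifs were chosen with earlier results of these data known. Sites named were the 15 strongest, the 5 with the longest run, the strongest in each ecdysone regulator and those with a response element, of which 1 is not reported here. Genes were the 10 with most such summits and the members of the lists. The alternatives tried were other run lengths, window sizes, matching distances, flank distances and lists, and each replicate left out.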

Additional observations from a re-analysis of the deposited data

How the results depend on the processing

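Of 79 recomputed values for 6 differences, 77 kept their direction and 2 turned; none could pass 0.05 in this design. The difference in promoter share, -1.09 percentage points, was 0.327 with all summits of each replicate and 0.000682 in the optimal list; the cause was not tested. Leaving out a replicate gave, per difference, 4.23 to 4.34 for summit minus flank share, 2.08 to 2.93 for rank percentile, -1.43 to -0.590 for promoter share, 5.76 to 6.34 for X share and -1.18 to -0.890 for tract cover; with 2 replicates the smallest p is 0.5. The share found in both other replicates has no such value; looked up in the lone other replicate, the difference was 0.732 to 0.892, against 1.36 for both. The other settings gave 1.52 (runs of at least 12 bp) to 5.82 (G and A runs not excluded) for summit minus flank share, 0.52 (strongest 5597) to 7.25 (all summits) for rank percentile, 4.58 (within 200 bp) to 12.01 (runs of at least 12 bp) for X share, 0.42 (matched within 50 bp) to 4.47 (runs of at least 12 bp) for the share found again, -5.21 (runs of at least 12 bp) to -0.09 (promoters of 1000 bp) for promoter share beside the values that turned, and -1.45 (runs of at least 12 bp) to -0.41 (optimal list) for tract cover. The rule holds 1596 summits at 7 bp, 498 at 10 bp and 293 at 12 bp.

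Shares are exact counts of letters, but summit positions carry the precision of the caller, which is unknown here, and without read counts the error of a single rank cannot be given. No library without the tag was compared.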
